A study of Mus musculus with 4 samples.

Results

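Complement genes were examined in the hippocampus of mice, as 9 genes found by their symbols among the 19230 genes of the table: the C1q chains C1qa, C1qb and C1qc, the components C4b and C3, the receptors C3ar1 and C5ar1, and the inhibitors Serping1 and Cd59a. The tissue came from C57BL/6 mice 12 months old, with no genetic change named in the labels. The LA group received licochalcone A, a chalcone of licorice root, over 30 days (replicates 1 and 2). The control group (Ctrl, replicates 2 and 3) is labelled Normal Culture, so what these mice received is not given, nor are the dose and route of LA. The comparison asks which complement transcripts differed between LA and Ctrl, with 2 libraries per group. Whether each library is a different mouse is not stated, and p-values therefore cover only the variation among these 4 libraries, which may be technical.

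Complement is a cascade of blood and tissue proteins that tags targets and calls phagocytes. In the classical pathway C1q recognises the target, its partner proteases C1r and C1s cleave C4 and C2, and the resulting convertase cleaves C3. Fragments of C3 mark the target for uptake, and small fragments of C3 and C5 signal through receptors on myeloid cells. C1 inhibitor, the product of Serping1, blocks the C1 proteases, and CD59 blocks the pore at the end of the cascade. In the brain microglia are the main makers of C1q, which tags synapses for removal, while C1 inhibitor is also made by fibroblasts and vascular cells.

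The C1q genes lie side by side on chromosome 4 of GRCm38, on the minus strand, within 18.7 kb from 136880129 to 136898803. Promoter sequences from RefSeq (GRCm38.p6, 250 bases before and 50 after the start site in that table) were matched for 6 of the 9 genes, with C1qa, C4b and Serping1 unmatched. The promoters of C1qb (chr4:136886151-136886450, minus strand) and C1qc (chr4:136892865-136893164, minus strand) are shown because the groups did not overlap for these neighbours, and that of Cd59a (chr2:104095551-104095850, plus strand) because for this inhibitor they did. Capitals mark GAGGAA on either strand, the core of the motif bound by PU.1, a transcription factor of myeloid cells.
C1qb: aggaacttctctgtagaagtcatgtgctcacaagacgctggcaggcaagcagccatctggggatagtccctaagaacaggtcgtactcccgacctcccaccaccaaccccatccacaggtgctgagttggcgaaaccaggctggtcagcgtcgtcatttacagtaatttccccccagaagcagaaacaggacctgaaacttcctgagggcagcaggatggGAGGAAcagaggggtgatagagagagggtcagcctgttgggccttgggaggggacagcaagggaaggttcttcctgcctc
C1qc: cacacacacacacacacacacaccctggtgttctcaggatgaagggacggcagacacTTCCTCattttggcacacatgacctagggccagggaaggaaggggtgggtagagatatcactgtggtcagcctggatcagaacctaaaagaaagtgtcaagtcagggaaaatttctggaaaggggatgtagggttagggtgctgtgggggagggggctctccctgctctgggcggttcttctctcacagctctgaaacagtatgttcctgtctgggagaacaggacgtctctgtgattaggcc
Cd59a: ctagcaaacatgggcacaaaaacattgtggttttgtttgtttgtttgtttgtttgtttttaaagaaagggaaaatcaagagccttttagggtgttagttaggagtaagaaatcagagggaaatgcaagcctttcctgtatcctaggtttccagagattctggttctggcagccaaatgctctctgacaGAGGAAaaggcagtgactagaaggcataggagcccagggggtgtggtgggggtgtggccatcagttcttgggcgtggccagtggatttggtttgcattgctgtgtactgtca
Each of these promoters holds 1 match, which begins at position -30 in C1qb, -193 in C1qc and -62 in Cd59a from the start site, and the match in C1qc is on the reverse strand. GAGGAA is present in 28.3% of the 32851 promoters of the same length, and the promoters of C3, C3ar1 and C5ar1 had no match. TGCTGA, the half-site of MAF factors, had 1 match in each of C1qb, C3, C3ar1 and C5ar1 and is present in 19.5% of promoters. TTCNNNGAA, the element bound by STAT factors, had no match in any of the 6 and is present in 8.30%. A match describes letters in these windows and not a bound site.

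Levels are in FPKM, a fragment count divided by transcript length and library depth, so they may be compared between genes. C1qa, C1qb and C1qc were the most abundant of the 9 genes, with means over the 4 libraries of 74.9, 69.3 and 53.9 FPKM. C4b followed at 23.2 FPKM, and the inhibitors Cd59a and Serping1 stood at 11.9 and 10.5 FPKM, an order that differs by group for Serping1. C3 was at 1.88 FPKM, C3ar1 at 1.00 and C5ar1 at 0.36. The plot of the 9 genes by library shows these levels.

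**Figure D1:**
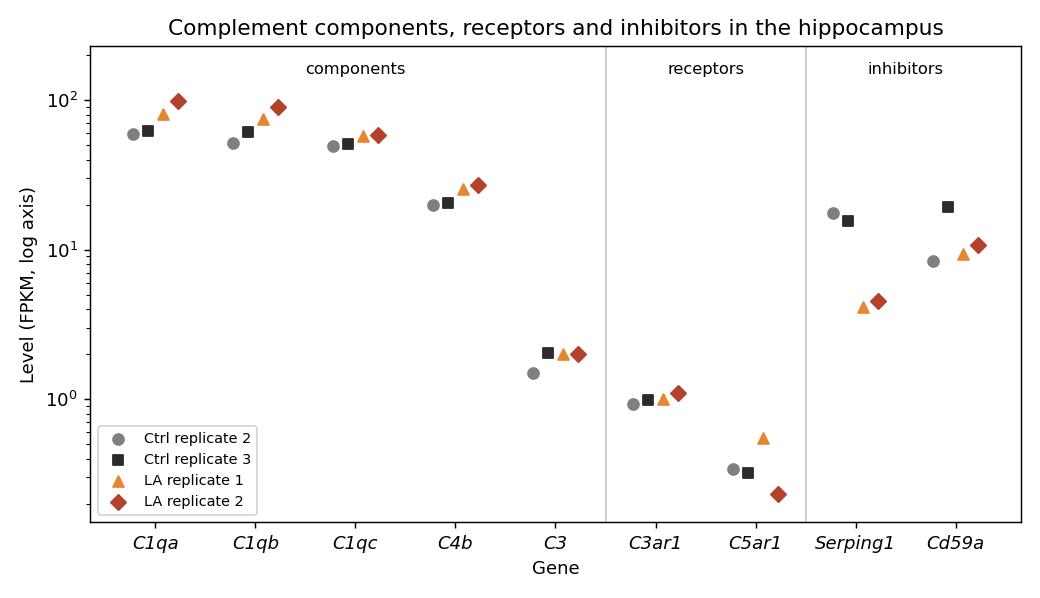
Level of each complement gene in FPKM on a log axis, with 1 point per library (grey and black, Ctrl replicates 2 and 3; orange and red, LA replicates 1 and 2). Serping1 lay at 15.6 and 17.7 FPKM in Ctrl and at 4.11 and 4.53 in LA, while the C1q chains and C4b lay higher in both LA libraries than in both Ctrl libraries.

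LA was set against Ctrl by limma, using log2(FPKM + 1) of the 13518 genes whose mean reached 1 FPKM, and a gene was called at an adjusted p under 0.05. The added 1 makes log2 fold changes of low genes smaller than those of their FPKM. Of the 9 genes 8 were tested. C3ar1 stood exactly at the limit of 1 FPKM, and C5ar1 was below it. Of the 8, 1 was called lower with LA, where 0.141% of all tested genes were, and 0 were called higher, as were 0% of all tested genes. At an unadjusted p under 0.05 from limma there were 4, namely C1qa, C1qb and C4b higher and Serping1 lower, against 3.74% of all tested genes higher and 4.06% lower. Without Ctrl replicate 2, or without Ctrl replicate 3, there were 2. In 5 of the 8 both LA libraries lay above both Ctrl libraries (17.6% of all tested genes), and in 1 both lay below (21.0%), so the groups did not overlap in 6 of 8, against 38.6% of all tested genes. The median log2 fold change was 0.16 over the 8 genes and -0.0124 over all tested genes. Since 3 of the 8 are neighbouring genes of a single protein complex, they are not independent of each other. The groups of C3ar1 were apart only by 0.99 in Ctrl against 1.00 FPKM in LA. The genes were chosen with earlier results of these data known, so the counts beside all tested genes are a description.

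Serping1 encodes C1 inhibitor, the serpin that inactivates C1r and C1s and also the lectin pathway proteases. The gene, on chromosome 2 of GRCm38 between 84765360 and 84775444, overlaps no other gene in GENCODE M21. Serping1 was at 17.68 and 15.60 FPKM in Ctrl replicates 2 and 3 and at 4.11 and 4.53 FPKM in LA replicates 1 and 2. Both LA libraries were far below both Ctrl libraries, and libraries of the same group differed by 1.13 times in Ctrl and 1.10 times in LA. The mean fell from 16.6 ± 1.47 to 4.32 ± 0.297 FPKM (SD, n = 2 each), which is 26.0% of Ctrl. The log2 fold change was -1.73 (limma standard error 0.172 and adjusted p = 0.0196), and Serping1 was in place 9 of 13518 genes by p. The call ended without LA replicate 2 (-1.78, adjusted p = 0.0613) and without the filter on low genes (-1.73, adjusted p = 0.319), while the fold change stayed between -1.92 and -1.64 under every alternative run.

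Cd59a encodes the membrane protein that stops assembly of the membrane attack complex on a cell's own surface. The gene lies further along chromosome 2, between 104095753 and 104115410. It stood at 8.34 and 19.23 FPKM in Ctrl replicates 2 and 3, and at 9.37 and 10.74 in LA replicates 1 and 2. The groups overlapped, since the LA libraries lay between the Ctrl libraries. The mean was 13.8 ± 7.70 FPKM in Ctrl and 10.1 ± 0.969 in LA (SD, n = 2 each), with a log2 fold change of -0.32 (limma, adjusted p = 0.856), and 0.24 without Ctrl replicate 3. That library also held 7537 FPKM of 7 summed choroid plexus markers, led by Ttr, against 21.2 to 87.7 in the other 3 libraries, and the part of this tissue in its Cd59a level was not tested. Serping1 was lower in that library than in Ctrl replicate 2, and its log2 fold change without it was -1.81. Reads of Cd59a and of its close copy Cd59b may be hard to tell apart. Cd59b was at 0.68 and 0.69 FPKM in Ctrl and at 0.31 and 0.18 in LA, too low to be tested.

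C1qa encodes the A chain of C1q, which assembles with the B and C chains into the recognition subunit. C1qa stood at 58.85 and 61.75 FPKM in Ctrl replicates 2 and 3 and at 80.16 and 98.88 in LA replicates 1 and 2. The mean was 60.3 ± 2.05 in Ctrl and 89.5 ± 13.2 in LA (SD, n = 2 each), with a log2 fold change of 0.55 (limma standard error 0.168 and adjusted p = 0.509). C1qb stood at 51.23 and 61.25 FPKM in Ctrl and at 74.27 and 90.32 in LA, with a log2 fold change of 0.54 (limma standard error 0.176 and adjusted p = 0.568). In both genes LA replicate 2 was the highest library, and the groups did not overlap. C1qc stood at 49.61 and 50.56 FPKM in Ctrl and at 57.03 and 58.28 in LA, with a log2 fold change of 0.20 (limma standard error 0.144 and adjusted p = 0.783). The difference in C1qc was smaller than in its partners, a contrast that was not tested, and its libraries differed by 1.02 times within each group. None of the 3 chains passed the test under any of the alternatives run, where the lowest adjusted p was 0.0616, for C1qa without LA replicate 1.

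The chains of C1q assemble in equal numbers, so their ratio in each library was also taken. C1qa over C1qb was 1.15 and 1.01 in Ctrl and 1.08 and 1.09 in LA, where the groups overlapped. C1qa over C1qc was 1.19 and 1.22 in Ctrl and 1.41 and 1.70 in LA, higher in both LA libraries and most in LA replicate 2. The longest coding transcripts of C1qa, C1qb and C1qc in GENCODE M21 have 1040, 1088 and 1203 bases. Among the 784 tested genes with such a transcript of 900 to 1300 bases, both LA libraries lay above both Ctrl libraries in 32.8%, against 10.5% of the 2861 genes with 5000 bases or more, and the median log2 fold change was 0.13 against -0.07. The part of transcript length in the C1q values was not tested.

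C4b encodes complement C4, which C1s cleaves and which astrocytes and oligodendrocytes make in the aged brain. It lies on chromosome 17 between 34728139 and 34743902. C4b stood at 19.74 and 20.44 FPKM in Ctrl and at 25.48 and 27.13 in LA, and the groups did not overlap. Its log2 fold change was 0.37 (limma standard error 0.146 and adjusted p = 0.609), and it ranged from 0.33 to 0.42 with each library left out in turn. Its longest coding transcript has 5379 bases. The neighbouring copy C4a, whose reads may be shared with C4b, was at 0.33 to 0.50 FPKM and lower in both LA libraries. Summed oligodendrocyte markers were 2182 and 1906 FPKM in Ctrl and 3379 and 4174 in LA, with both LA libraries higher for 7 of 7 markers (17.6% of all tested genes), 0 called by limma and 7 at an unadjusted p under 0.05 (3.74% higher among all tested genes). Their part in the C4b level was not tested.

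C3, on chromosome 17 between 57203967 and 57228136, encodes the central component on which the pathways converge. C3 stood at 1.5 and 2.03 FPKM in Ctrl and at 2.01 and 1.99 in LA, so Ctrl replicate 2 alone was low and the groups overlapped. Its log2 fold change was 0.12 (limma standard error 0.213 and adjusted p = 0.930), and -0.014 without Ctrl replicate 2. C3ar1, the receptor for the C3a fragment (chromosome 6, 122847140 to 122856157), stood at 0.92 and 0.99 FPKM in Ctrl and at 1.00 and 1.09 in LA, with a log2 fold change of 0.06 (limma standard error 0.212 and adjusted p = 0.965). The groups did not overlap by 0.01 FPKM, the step to which the values are rounded. C5ar1, the receptor for C5a (chromosome 7, 16246743 to 16259540), stood at 0.34 and 0.32 FPKM in Ctrl and at 0.55 and 0.23 in LA, where the LA libraries lay on either side of Ctrl.

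Depth limits the low genes. The FPKM that 1 fragment adds to short genes with a single transcript gave an estimate of 14700000 to 15600000 mapped fragments per library. With the longest coding transcript this corresponds to an estimated 12 to 13 fragments of C5ar1 in the Ctrl libraries, with 21 in LA replicate 1 and 9 in LA replicate 2. C3ar1 had an estimated 62 to 69 fragments. Serping1 had an estimated 488 and 422 fragments in Ctrl and 107 and 119 in LA, and C1qa 955 to 1522. These are estimates, as the totals of mapped reads were not used here.

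C1q of microglia was then set against the inhibitors within each library. C1qa over Serping1 was 3.33 and 3.96 in Ctrl and 19.5 and 21.8 in LA. C1qb over Serping1 was 2.90 and 3.93 in Ctrl and 18.1 and 19.9 in LA, and C1qc over Serping1 was 2.81 and 3.24 in Ctrl and 13.9 and 12.9 in LA. All 3 ratios were higher in both LA libraries, by 5.67, 5.57 and 4.42 times in the group means. Against Cd59a the ratios were closer, with C1qa over Cd59a at 7.06 and 3.21 in Ctrl and 8.55 and 9.21 in LA. C1qb over Cd59a was 6.14 and 3.19 in Ctrl and 7.93 and 8.41 in LA, where the groups did not overlap either. C1qc over Cd59a was 5.95 and 2.63 in Ctrl and 6.09 and 5.43 in LA, where the groups overlapped. The lower Ctrl value of each ratio to Cd59a was that of replicate 3, the library with the most choroid plexus markers. Summed over the chains and both inhibitors, C1q over inhibitors was 6.14 and 4.98 in Ctrl and 15.7 and 16.2 in LA.

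**Figure D2:**
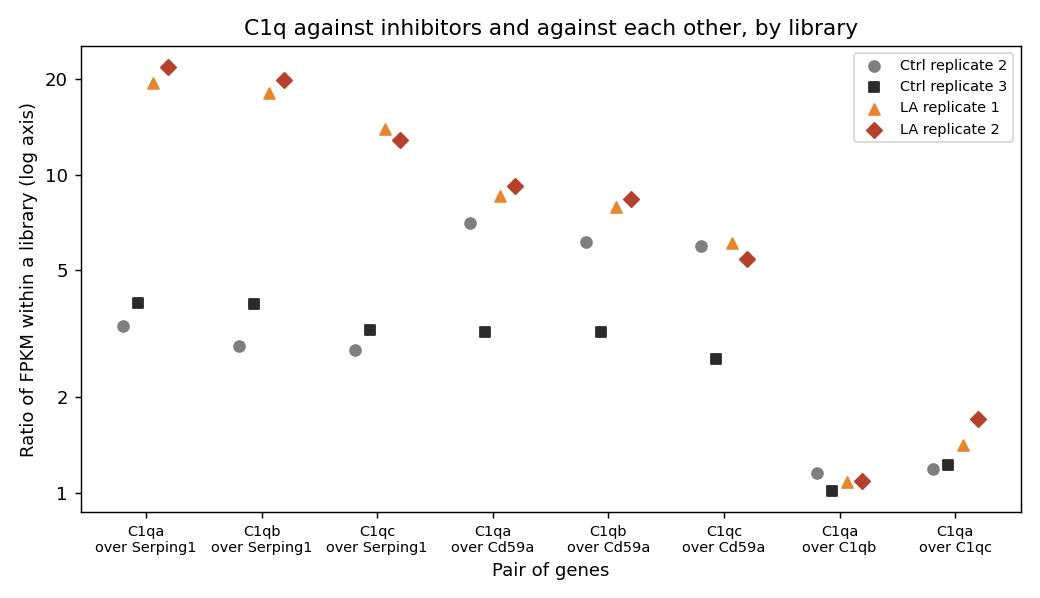
Ratio of FPKM between pairs of genes within each library, on a log axis, with 1 point per library. The ratios of C1q chains to Serping1 lay between 2.81 and 3.96 in Ctrl and between 12.9 and 21.8 in LA, while C1qc over Cd59a and C1qa over C1qb overlapped between the groups.

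As a mean of log2(FPKM + 1) in each library, C1q exceeded Serping1 and Cd59a by 2.03 and 1.68 in Ctrl and by 3.28 and 3.34 in LA. The difference between the group means was 1.45, against a spread between libraries of 0.252 (SD) in Ctrl and 0.040 in LA (n = 2 each). Against Serping1 alone the difference was 2.16 and against Cd59a alone 0.75, with Ctrl replicates at 2.53 and 1.53 for the latter. Most of the change in the ratio was thus in Serping1, whose log2 fold change of -1.73 was larger in size than the 0.20 to 0.55 of the C1q chains. No test was made of this score, because its genes were chosen with results of these data known.

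The other genes of the pathway were read from the same fit. Of 55 listed genes 52 were in the table and 24 passed the filter, of which 1 was called lower (0.141% of all tested genes) and 0 higher (0%), with 5 at an unadjusted limma p under 0.05, or 2 without Ctrl replicate 3. Among all tested genes 3.74% were higher and 4.06% lower at that unadjusted p. Both LA libraries lay above both Ctrl libraries in 2 of the 24, against 17.6% of all tested genes, and below in 10, against 21.0%. The median log2 fold change of the 24 was -0.13. The called gene was Vtn, which encodes vitronectin, a matrix and plasma protein that blocks the terminal complex. Vtn stood at 50.79 and 45.54 FPKM in Ctrl and at 13.16 and 15.80 in LA, with a log2 fold change of -1.67 (limma standard error 0.162 and adjusted p = 0.0196). As for Serping1, its call ended without LA replicate 2 (adjusted p = 0.0535) and without the filter (adjusted p = 0.319).

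**Figure D3:**
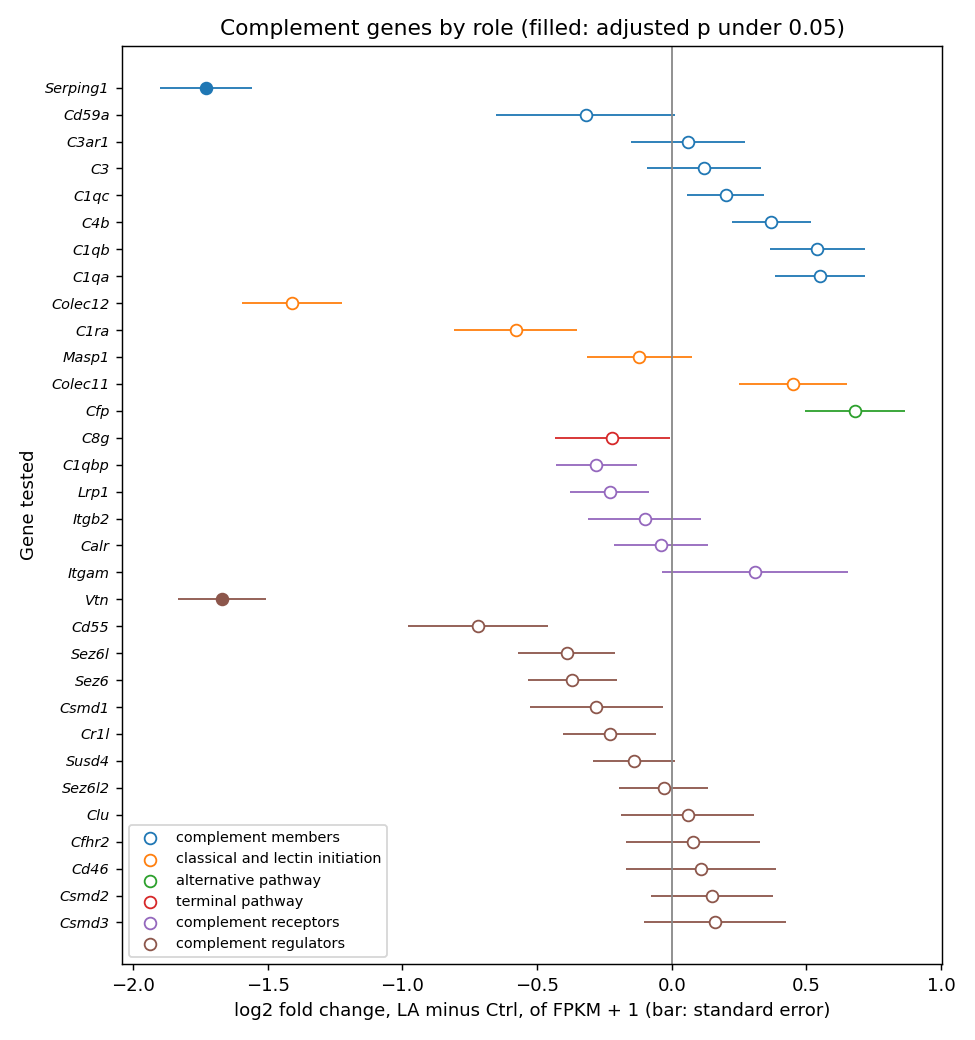
Log2 fold change (LA minus Ctrl, of FPKM + 1) of the 8 tested complement members and the 24 other tested complement genes, coloured by role, with bars for the standard error and filled points for an adjusted p under 0.05. Serping1 at -1.73 and Vtn at -1.67 are the filled points, and C1qa at 0.55 and Cfp at 0.68 lie on the right.

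Among the regulators, 13 were tested, with 1 called lower (0.141% of all tested genes) and 0 higher (0%). At an unadjusted limma p under 0.05 there were 2, Vtn and Cd55, each lower (4.06% lower among all tested genes). For Cd55, which encodes decay-accelerating factor, the log2 fold change was -0.72 (limma, adjusted p = 0.609), with 4.44 and 7.25 FPKM in Ctrl and 3.65 and 2.57 in LA. It was -0.42 without Ctrl replicate 3 and -1.02 without Ctrl replicate 2. Cr1l and Cd46, of the same list, had smaller log2 fold changes of -0.23 and 0.11 (limma, adjusted p = 0.797 and 0.955). Clu, which encodes clusterin, a secreted chaperone of astrocytes that also binds the terminal complex, was the most abundant at 645.6 to 714.6 FPKM. Its log2 fold change was 0.06, and -0.18 with quantile normalization, and the groups overlapped. Susd4 and Sez6l2, membrane proteins of neurons with complement-control domains, had log2 fold changes of -0.14 and -0.03.

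Among the initiators Colec12, which encodes a scavenger receptor collectin of vascular and other stromal cells, had the largest difference of the 4 tested genes. It lies on chromosome 18 and overlaps several pseudogenes and small RNA genes. Colec12 stood at 7.65 and 7.74 FPKM in Ctrl and at 2.15 and 2.38 in LA, with a log2 fold change of -1.41 (limma, adjusted p = 0.0543). It missed the threshold narrowly, and pseudocounts of 0.1 and 0.5 made it a call (limma, adjusted p = 0.0427 and 0.0494), with a range of 0.0188 to 0.402 over all alternatives. C1ra, a gene for the C1r protease that C1 inhibitor blocks, stood at 1.28 and 1.83 FPKM in Ctrl and at 0.63 and 0.77 in LA, lower in both LA libraries but not called (limma, adjusted p = 0.609). Colec11, which encodes the collectin CL-K1, was at 250 to 383 FPKM with a log2 fold change of 0.45 (limma, adjusted p = 0.661), and Masp1, a lectin pathway protease, had -0.12. The means of Colec11, Colec12 and Masp1 were 308, 4.98 and 4.39 FPKM. Whether all reads counted for Colec11 come from that gene was not tested. Fcna, a ficolin of macrophages, was at 0.76 and 0.83 FPKM in Ctrl and at 0.05 and 0.15 in LA, too low to be tested. Vsig4, a complement receptor of macrophages, and Cd55b were listed at 0 in both LA libraries, where Ctrl had 0.17 and 0.43 FPKM of Vsig4.

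Cfp, which encodes properdin, the stabiliser of the alternative pathway convertase, was the single tested gene of that pathway. It stood at 5.51 and 4.93 FPKM in Ctrl and at 9.91 and 8.12 in LA, higher in both LA libraries, with a log2 fold change of 0.68 (limma, adjusted p = 0.445). Of the terminal components only C8g passed the filter, with a log2 fold change of -0.22, and the other 6 had means under 1 FPKM. Among the receptors 5 were tested and 0 were called (0.141% of all tested genes). At an unadjusted limma p under 0.05 there were 0 (3.74% higher and 4.06% lower among all tested genes). Itgam, a chain of complement receptor 3 on microglia, was at 4.46 and 2.59 FPKM in Ctrl and at 6.61 and 2.95 in LA, and the groups overlapped. Calr, C1qbp and Lrp1, the most abundant of that list, had log2 fold changes of -0.04, -0.28 and -0.23. Synaptic proteins that share the globular domain of C1q are not complement. Of the 6 that were tested 0 were called by limma (0.141% of all tested genes). At an unadjusted limma p under 0.05 there was 1, Cbln4 at -0.54 (4.06% lower among all tested genes). C1ql3, C1ql2 and C1ql1 had log2 fold changes of -0.26, 0.02 and 0.33.

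The level of a gene in a tissue piece can differ by fewer cells of a type or by less RNA per cell, and bulk libraries cannot tell these apart. Markers of hippocampal excitatory neurons summed to 1220 to 1396 FPKM in every library, and all 6 were above the filter, as the tissue label requires. Leptomeningeal fibroblast markers summed to 244.6 and 286.2 FPKM in Ctrl and to 93.7 and 103.7 in LA, with both LA libraries lower for 13 of 13 markers (21.0% of all tested genes), 5 called (0.141%) and none at 0. The called markers were Slc6a13, Slc13a4, Igf2, Aldh1a2 and Islr. Serping1 was 7.23% and 5.45% of that sum in Ctrl and 4.39% and 4.37% in LA. Dcn made up most of the sum in LA, at 48.74 and 59.25 FPKM, against 69.95 and 67.78 in Ctrl. Its log2 fold change of -0.35 was the smallest in size of the 13, so these shares depend on Dcn. The median log2 fold change of the 13 was -1.64, beside -1.73 for Serping1. Endothelial markers summed to 44.1 and 84.7 FPKM in Ctrl and to 34.2 and 35.0 in LA. By limma 0 of 8 were called (0.141% lower among all tested genes) and 4 had an unadjusted p under 0.05 (4.06% lower). Pericyte and smooth muscle markers summed to 26.7 and 28.4 against 21.1 and 19.4, and border macrophage markers to 8.56 and 11.4 against 3.78 and 4.01. By limma 0 of 5 and 0 of 3 were called (0.141% lower among all tested genes). At an unadjusted p under 0.05 there were 3 and 2 (4.06% lower). The summed level of each of these 4 lists was lower in both LA libraries, as were Serping1, Vtn and Colec12. The pericyte and smooth muscle list was not uniform. Rgs5 and Kcnj8 had log2 fold changes of -0.07 and -0.02, and their groups overlapped. Pdgfrb, Acta2 and Tagln had -0.46, -0.61 and -1.39. Called markers were found only in the leptomeningeal list. Both LA libraries were also lower for 5 of 8 tested endothelial and 3 of 5 tested pericyte and smooth muscle markers (21.0% of all tested genes). The same held for 3 of 3 tested border macrophage markers, while the list has 7. Markers of low FPKM were not tested or have smaller log2 fold changes through the added 1, which limits calls among them. The part of these cells in the lower levels of Serping1, Vtn and Colec12 was not tested.

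**Figure D4:**
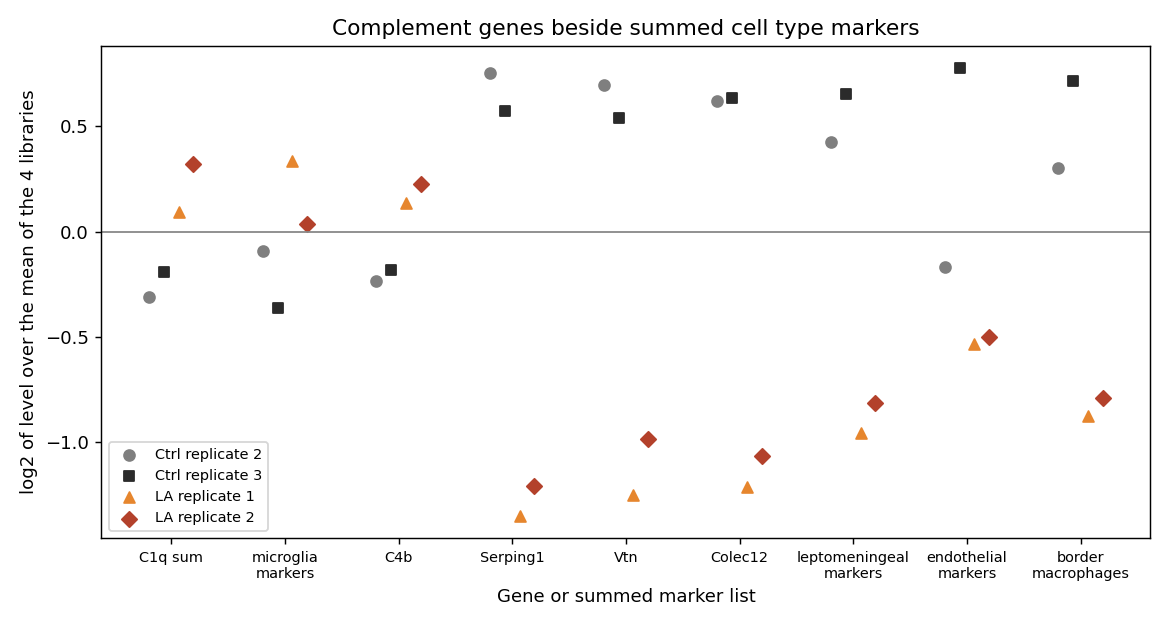
Complement genes and summed marker lists in each library, as log2 of the level over the mean of the 4 libraries. Serping1, Vtn, Colec12 and the leptomeningeal and border macrophage sums are above 0 in both Ctrl libraries and below 0 in both LA libraries, and the C1q sum, the microglia markers and C4b are the reverse.

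Microglia markers summed to 214.4 and 177.6 FPKM in Ctrl and to 288.5 and 234.6 in LA, with both LA libraries higher in 6 of 12 (17.6% of all tested genes). The log2 fold change was positive in 12 of 12, with a median of 0.38, against a median of -0.0124 over all tested genes. By limma 0 were called (0% higher among all tested genes) and 2 had an unadjusted p under 0.05 (3.74% higher). The sum of the C1q chains was 159.7 and 173.6 FPKM in Ctrl and 211.5 and 247.5 in LA. As a share of the microglia marker sum it was 74.5% and 97.7% in Ctrl and 73.3% and 105.5% in LA, so relative to microglia markers the groups overlapped. The order of the libraries also differed, since LA replicate 1 was highest for microglia markers and LA replicate 2 for C1q. Markers of neutrophils and monocytes summed to 4.43 to 14.8 FPKM and overlapped between the groups. By limma 0 of 3 were called (0.141% of all tested genes) and 0 had an unadjusted p under 0.05 (3.74% higher and 4.06% lower).

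Interferon response genes, a class to which Serping1 and C4b belong in many cells, summed to 225.1 and 334.6 FPKM in Ctrl and to 240.6 and 199.6 in LA. That sum was mostly B2m, at 163.78 and 253.06 FPKM in Ctrl and 198.21 and 149.70 in LA. By limma 0 of 13 were called (0.141% lower among all tested genes) and 3 had an unadjusted p under 0.05 (4.06% lower). The log2 fold change was negative in 12 of 13, with a median of -0.27. Both LA libraries were lower in 6 (21.0% of all tested genes) and higher in 0 (17.6%). Reactive astrocyte genes summed to 135.0 and 154.0 FPKM in Ctrl and to 123.9 and 124.2 in LA. By limma 0 of 12 were called (0.141% lower among all tested genes) and 1 had an unadjusted p under 0.05 (4.06% lower). Both LA libraries were lower in 7 of 12 (21.0% of all tested genes) and higher in 2 (17.6%). Astrocyte markers summed to 1185 and 1088 FPKM in Ctrl and to 1308 and 1152 in LA, and the groups overlapped. Erythrocyte markers summed to 1645 and 1610 FPKM in Ctrl and to 3258 and 1863 in LA, with LA replicate 1 far above the rest. Both LA libraries were higher for 5 of 5 markers (17.6% of all tested genes). By limma 0 were called (0% higher among all tested genes) and 1 had an unadjusted p under 0.05 (3.74% higher).

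The genes nearest in pattern over the 4 libraries were taken by the root mean square distance of centred log2(FPKM + 1), among 9703 other genes whose mean reached 5 FPKM. For Serping1 these were Vtn (0.0553), Ctgf (0.103), Slc22a8 (0.125), Slc13a3 (0.127) and Bmp7 (0.138). Ctgf encodes a matrix growth factor, Slc22a8 and Slc13a3 encode transporters of organic anions and dicarboxylates, and Bmp7 encodes a secreted growth factor. Serping1 was 34.8% and 34.3% of Vtn in Ctrl and 31.2% and 28.7% in LA, a closeness that the choice of Vtn as the nearest gene fixes. For C1qa they were Supt4a (0.0132), Rps3a1 (0.0220), Uqcrh (0.0245), A430005L14Rik (0.0257) and 1810022K09Rik (0.0269), which include a ribosomal protein gene and a subunit of respiratory complex III. C1qb was in place 51 (0.0662), Trem2, the nearest microglia marker, in place 167 (0.107), Tyrobp in place 480, C1qc in place 1088 and P2ry12 in place 7664. With 4 libraries many genes lie close to any pattern, so these distances are a description.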

How the data were processed

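Messenger RNA of the hippocampus was sequenced in 2 Ctrl and 2 LA libraries, grouped by their titles. The authors deposited FPKM values per gene. TopHat2, Cufflinks and GRCm38 appear in the submitters' processing notes, while their versions and the annotation are not given, and the paper linked to the series describes only cell culture. All 4 value columns were matched to libraries by name. Dates had replaced 11 gene symbols, restored through RefSeq gene numbers. FPKM summed to 386945 to 441948 per library, and 919 to 1440 genes were listed at 0.

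The values were not scaled further. Genes whose mean reached 1 FPKM were tested as log2 values with a pseudocount of 1, by limma 3.58.1 (R 4.3.3, eBayes with a trend, prior of 5.37 degrees of freedom), two-sided, with Benjamini-Hochberg adjustment over 13518 genes. The procedure was also run on simulated data, with independent genes and noise drawn from its own variance model. Such data cannot show how it behaves where genes of these libraries vary together. Mapped fragments were estimated from FPKM times length of low genes of 300 to 1000 bases with 1 transcript; sampling error was not computed.

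The members and gene lists were chosen with earlier results of these data known. A gene of the lists is not reported here and is in none of their counts. Named genes were the members, the 3 genes of highest mean FPKM in each role group, called genes, and the 5 nearest patterns of C1qa and Serping1; marker genes taken by the same rule are given as list sums. Cd55, Cr1l, Cd46, C1ra, C4a, Cd59b, Fcna, Vsig4, Cd55b, Cbln4 and Itgam, and the classes of transcript length, were chosen after values were seen. So were the single values of Dcn and of pericyte and smooth muscle markers. The alternatives changed the pseudocount (0.1, 0.5), the filter (none, or a mean of 5 FPKM), the scaling (median ratio, quantile) and the variance model (no trend, robust), or left out each library in turn.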

Additional observations from a re-analysis of the deposited data

How the results depend on the processing

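With limma and no filter on low genes 0 of 19080 genes were called, with 1333 at an unadjusted p under 0.05, and so 0 complement members (4 at that unadjusted p) and 0 of 52 other complement genes (10), with Serping1 at -1.73 (adjusted p = 0.319). Robust estimation called 40 genes. The other complement genes called were 2, Vtn and Colec12, with either other pseudocount, without the trend and with robust estimation. With each library left out in turn the counts were 2 to 227 genes (227 without Ctrl replicate 2, 78 without Ctrl replicate 3, 177 without LA replicate 1), 0 to 1 members and 0 to 2 other complement genes (2, Vtn and Colec12, without Ctrl replicate 2, Ctrl replicate 3 or LA replicate 1), the lowest each time without LA replicate 2, where 4 members and 6 other complement genes had an unadjusted p under 0.05. Over the libraries left out that unadjusted count was 2 to 4 for members (2 without either Ctrl replicate) and 2 to 7 for other complement genes (2 without Ctrl replicate 3); a lone library is taken to vary as the other group does. Over these Serping1 ranged from -1.81 to -1.64, and its adjusted p from 0.00578 to 0.319 over all 12 alternatives, of which 10 kept the call. The difference of C1q from the inhibitors stayed between 1.28 and 1.63.

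The sign of genes not called with all libraries changed with a library left out for C3 (-0.014 to 0.26), Cd59a (-0.87 to 0.24), C1ql2 (-0.15 to 0.19), C1ql3 (-0.64 to 0.12), Calr (-0.16 to 0.074), Clu (-0.010 to 0.14), Masp1 (-0.25 to 0.0084), Sez6l2 (-0.13 to 0.058) and Ttr (-6.92 to 2.20), and for Clu with quantile normalization (-0.18). Ttr was called lower without Ctrl replicate 2 (limma, adjusted p = 6.54e-08) and higher without Ctrl replicate 3 (limma, adjusted p = 0.000577). Ttr stood at 12.2 and 7360 FPKM in Ctrl replicates 2 and 3 and at 47.2 and 75.2 in LA. The cause of these changes was not tested. For the members, 90 of 94 values under alternatives had the main sign and call. Only Serping1 was called with all libraries, so a call could be lost by Serping1 alone. For the other members an unchanged call says little. No paired analysis was possible because the groups share only replicate number 2.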
